A study of Mus musculus with 24 samples.

Results

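The genes described here are 33 listed genes of the hypoxia response and of glycolysis. They are a list of names, drawn up with earlier results of these data known, and no threshold on measured values set who belongs to it. Their rows were taken from the count table through the Ensembl identifiers that carry these symbols. They fall into 15 glycolytic enzymes or regulators, 3 genes of sugar and lactate transport and pyruvate use, 3 oxygen sensing genes and 12 other targets of the hypoxia-inducible factors (HIF). The 33 symbols match 34 of the 57126 identifiers in the table. One identifier of Aldoa had 0 counts in every library, and the other 33 rows all had enough counts to be among the 13125 genes tested.

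HIF is a pair of proteins, an alpha subunit such as the one encoded by Hif1a and a stable partner. In cells with enough oxygen the prolyl hydroxylases encoded by Egln1 and Egln3 mark the alpha subunit for destruction, and in low oxygen it builds up, enters the nucleus and binds short DNA motifs near its targets. These targets include glucose and lactate carriers, most glycolytic enzymes, Vegfa, Adm and Car9, so sugar use rises when respiration is short of oxygen. The epithelium of the gut lies next to a lumen with little oxygen and is known for a physiological state of low oxygen toward the villus tip.

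Fragments of ileum from male wild-type mice (C57BL/6J), starved for 4 h, were cultured for 8 h with an additive, and the 3' ends of their mRNAs were counted. The question of the series was how bile acids of the body regulate genes. The tissue was wild-type in every group, and WT and KO give the genotype of the mouse that an extract came from, KO standing for Asbt-/-, which lacks the ileal bile acid uptake carrier. The labels do not tie fragments to animals, so the p-values rest on the spread among these libraries, and that spread may be technical.

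The groups were the taurine conjugate of chenodeoxycholic acid (tCDCA, 4 libraries used, 200 µM in replicates 2 to 4), the extracts KO CME(-) (3 libraries, 200 µM in replicates 2 and 4), KO CME(+) (4 libraries), WT CME(-) (4 libraries, 200 µM in replicates 2 to 4) and WT CME(+) (3 libraries), and the solvent DMSO at 0.6% (3 libraries). The labels give no concentration for replicate 1 of the treated groups or for the CME(+) extracts, and do not spell out CME. The treatment text names extracts with and without removal of bile acids, and which sign means removal is not stated. The labels mark 3 of the 24 libraries as removed by the submitters, namely DMSO replicate 1 for its 0.5% DMSO, and, because few reads mapped, KO CME(-) replicate 3 and WT CME(+) replicate 2. The 21 others held 2.76 to 5.6 M counts each.

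The column names open with 1 of 2 numbers, called the first and the second set below, and what the numbers stand for is not given. Replicate 1 of each group belonged to the first set and replicates 2 to 4 to the second, so all 3 DMSO libraries used were of the second set. The fit had a term for the set, and in comparisons with DMSO it was estimated from the other groups. One library stood apart: tCDCA replicate 3 had 5.29% of its counts in mitochondrial rRNA, where the other second-set libraries used had 17.6 to 34.6% and the first set 6.78 to 8.29%. The 33 genes held 0.594% of all counts in that library, against 0.252 to 0.443% in the other second-set libraries used and 0.524 to 0.626% in the first-set libraries used. Of 5 ileal and 12 enterocyte markers all were present in the libraries, as the label of the tissue requires. Levels are CPM, counts scaled to a common library total with TMM factors. They are tag counts not divided by length, and are compared only within a gene.

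The promoters of a few of the genes that results turn on are shown first, because HIF binds the letters ACGTG or GCGTG. The windows run from 250 bases before to 50 after the annotated start, 5′ to 3′ along the gene, from RefSeq on GRCm38.p6. Capitals mark ACGTG or GCGTG on either strand, read as CACGT or CACGC where the motif lies on the other strand.
Car9, chr4:43506776-43507075, plus strand: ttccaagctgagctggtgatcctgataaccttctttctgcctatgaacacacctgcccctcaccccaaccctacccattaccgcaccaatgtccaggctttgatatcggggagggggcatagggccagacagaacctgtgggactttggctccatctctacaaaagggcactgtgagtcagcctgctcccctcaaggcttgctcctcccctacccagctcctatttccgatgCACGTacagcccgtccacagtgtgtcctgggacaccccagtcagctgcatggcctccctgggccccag
Adm, chr7:110627407-110627706, plus strand: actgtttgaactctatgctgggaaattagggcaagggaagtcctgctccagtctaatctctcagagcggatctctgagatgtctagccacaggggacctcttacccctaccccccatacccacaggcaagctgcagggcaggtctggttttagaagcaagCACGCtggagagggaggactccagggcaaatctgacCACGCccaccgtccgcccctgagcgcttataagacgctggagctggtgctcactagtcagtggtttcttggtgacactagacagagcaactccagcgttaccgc
Egln3, chr12:54203825-54204124, minus strand: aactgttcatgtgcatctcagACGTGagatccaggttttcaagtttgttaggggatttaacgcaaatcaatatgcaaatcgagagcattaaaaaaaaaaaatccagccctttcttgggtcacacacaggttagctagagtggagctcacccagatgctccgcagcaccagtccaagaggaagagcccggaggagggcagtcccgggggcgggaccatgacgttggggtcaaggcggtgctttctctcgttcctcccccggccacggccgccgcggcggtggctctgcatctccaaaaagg
Mxi1, chr19:53310256-53310555, plus strand: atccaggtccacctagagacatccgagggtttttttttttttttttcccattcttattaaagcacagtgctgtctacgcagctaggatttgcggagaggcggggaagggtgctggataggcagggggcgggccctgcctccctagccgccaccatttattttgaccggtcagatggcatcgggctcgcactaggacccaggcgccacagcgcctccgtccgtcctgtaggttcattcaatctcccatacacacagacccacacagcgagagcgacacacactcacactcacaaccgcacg
Car9 has ACGTG on the opposite strand 18 bases before its start, Adm has GCGTG on the opposite strand at 90 and 54 bases before it, and Egln3 has ACGTG 229 bases before it. The first of 3 Mxi1 windows holds neither motif.

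Of the 33 genes, 31 had a window, all but Ndrg1 and Bnip3l. In the first window of each gene, ACGTG stood in 17 of 31 (54.8%), against 5305 of 27025 windows of all genes (19.6%). GCGTG stood in 17 of 31 (54.8%), against 32.5% of all windows, and either motif in 24 of 31 (77.4%), against 43.8%. Both strands were searched, and ACGTG on one strand overlaps ACGTG on the other wherever the letters are CACGTG. Either motif stood in 10 of the 15 windows of glycolytic enzymes (66.7%) and in 14 of the 16 others (87.5%). A match is a description of the letters, not of a bound site.

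Against DMSO, 5 of the 33 genes passed the test in at least 1 group, namely Pkm of the 15 glycolytic genes and Ndrg1, Car9, Mxi1 and Adm of the 18 others. Whether these shares differ was not tested. The share of all genes tested that passed in at least 1 group was not computed, and shares per comparison are given below. With tCDCA, Ndrg1 and Car9 rose and Mxi1 fell. Adm rose with KO CME(-), KO CME(+) and WT CME(-), Car9 with KO CME(+) and WT CME(+), and Pkm with KO CME(+). The threshold for calling a gene was an adjusted p under 0.05 in edgeR's quasi-likelihood test, adjusted over all genes tested.

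Per comparison with DMSO, 3 of 33 genes were called with tCDCA, 1 with KO CME(-), 3 with KO CME(+), 1 with WT CME(-) and 1 with WT CME(+). Of all genes tested, 5.68% were called with tCDCA, 0.952% with KO CME(-), 2.31% with KO CME(+), 0.297% with WT CME(-) and 0.168% with WT CME(+). These comparisons share their DMSO libraries. The median log2 fold change of the 33 genes was 0.26 with tCDCA, 0.09 with KO CME(-), 0.26 with KO CME(+), 0.08 with WT CME(-) and 0.25 with WT CME(+), where the median of all genes tested lay between -0.02 and 0.0013. Fold changes were above 0 for 26 of 33 genes with tCDCA, 20 with KO CME(-), 28 with KO CME(+), 20 with WT CME(-) and 30 with WT CME(+). Since the tissue was measured in bulk, fewer cells of a type and less RNA per cell cannot be told apart in any of these values.

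**Figure D1:**
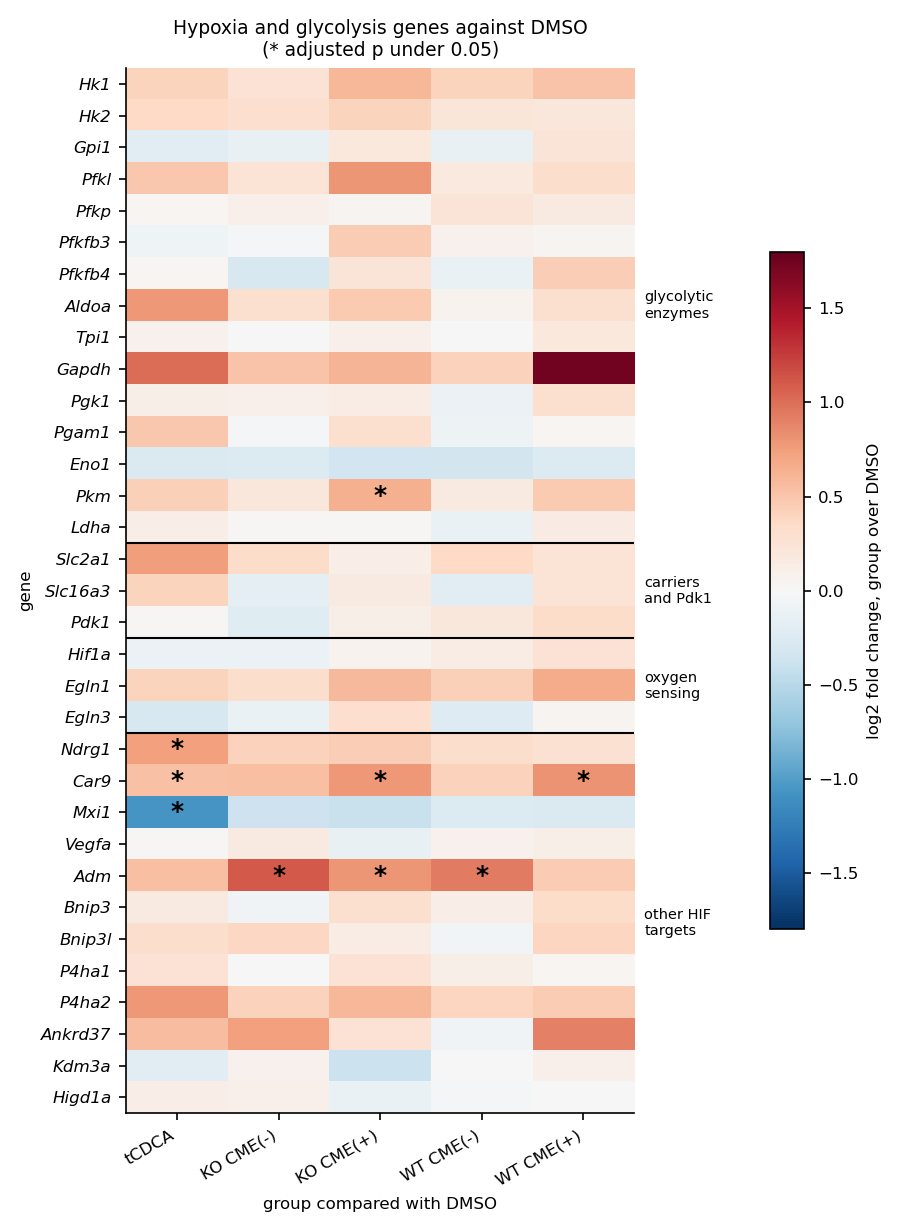
Log2 fold change of each of the 33 genes (rows) in 5 treated groups over DMSO (columns), on a colour scale from blue (lower than DMSO) to red (higher), with a star where the adjusted p was under 0.05. The 9 stars fall on Ndrg1, Car9, Mxi1, Adm and Pkm, and 1 of them, Mxi1 with tCDCA, is blue.

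Among the oxygen sensing genes, Hif1a, the alpha subunit itself, passed no test. It stood at 216, 195, 94.4 and 216 CPM with tCDCA, at 178, 186 and 176 with KO CME(-), at 211, 192, 230 and 179 with KO CME(+), at 205, 204, 206 and 238 with WT CME(-), at 235, 220 and 240 with WT CME(+), and at 171, 248 and 153 with DMSO. The groups overlapped with DMSO throughout, and the lowest value was that of tCDCA replicate 3. Over DMSO the log2 fold change was -0.10 with tCDCA (95% interval -0.50 to 0.29), and its adjusted p was 0.859 (edgeR).

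Egln1, the hydroxylase that is the main oxygen sensor of HIF, was higher than DMSO by 0.41 (tCDCA), 0.32 (KO CME(-)), 0.58 (KO CME(+)), 0.43 (WT CME(-)) and 0.67 (WT CME(+)) on the log2 scale, with edgeR adjusted p from 0.068 to 0.515, so it was called in none. DESeq2 called it with KO CME(+) (0.57, adjusted p = 0.0301) and WT CME(+) (0.67, 0.0348), and edgeR with no scaling factors called it with KO CME(+) (0.83, 0.0288). Its levels were 53.6 to 74.7 CPM with tCDCA, 38.2 to 78.5 with KO CME(-), 45.6 to 98.0 with KO CME(+), 38.9 to 81.7 with WT CME(-), 46.5 to 104 with WT CME(+) and 50.8 to 62.4 with DMSO. Egln3, a hydroxylase that is itself a HIF target, was not called against DMSO, with log2 fold changes of -0.29 (tCDCA) to 0.30 (KO CME(+)). It appears again in the comparison of tCDCA with the KO CME(+) extract.

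Car9 (ENSMUSG00000028463.15) encodes a carbonic anhydrase of the cell surface and is one of the best known HIF targets. It stood at 65.4, 128, 153 and 154 CPM with tCDCA (replicates 1 to 4), 64.4, 140 and 155 with KO CME(-), 78.8, 154, 197 and 169 with KO CME(+), 53.5, 164, 135 and 122 with WT CME(-), 83.2, 167 and 179 with WT CME(+), and 104, 95.6 and 105 with DMSO. The first value of each treated group is its first-set library and lies below all DMSO libraries used, while every second-set treated library lies above them. DMSO replicate 1, the first-set library with 0.5% DMSO that the submitters removed, had 88.1 CPM, more than any other first-set library, so within the first set no treated library was above it.

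In edgeR's test Car9 rose 1.44-fold with tCDCA (log2 0.53 ± 0.15 SE, adjusted p = 0.0334), 1.72-fold with KO CME(+) (0.78 ± 0.16, 0.00278) and 1.76-fold with WT CME(+) (0.81 ± 0.17, 0.0207). It was 0.54 ± 0.17 with KO CME(-) (adjusted p = 0.109, and 0.0332 in DESeq2) and 0.42 ± 0.15 with WT CME(-) (adjusted p = 0.316). These groups were not shown to differ: CME(-) against CME(+) gave -0.25 with KO extracts (adjusted p = 0.779) and -0.39 with WT extracts (adjusted p = 0.586). In second-set libraries alone the log2 fold changes were 0.52 (adjusted p = 0.0595), 0.77 (0.00823) and 0.77 (0.0904) with tCDCA, KO CME(+) and WT CME(+).

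The KO CME(+) call of Car9 held without any 1 library. The tCDCA call was lost without tCDCA replicate 1 or 4 or any of the 3 DMSO libraries, at adjusted p from 0.0506 to 0.158. The WT CME(+) call was lost without any of its own 3 libraries or without DMSO replicate 3 or 4, at adjusted p from 0.0629 to 0.235. With DMSO replicate 1 added to the fit, the log2 fold changes of Car9 were 0.24 with tCDCA, 0.50 with KO CME(+) and 0.51 with WT CME(+), and none was called (adjusted p 0.545, 0.171 and 0.571).

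Adm (ENSMUSG00000030790.16) encodes adrenomedullin, a secreted peptide that widens vessels and supports epithelial barriers. It was at 108, 55.8, 109 and 89.2 CPM with tCDCA, 137, 94.6 and 170 with KO CME(-), 119, 105, 101 and 105 with KO CME(+), 128, 110, 140 and 96.6 with WT CME(-), 89.6, 76.8 and 91.6 with WT CME(+), and 42.3, 53.4 and 83.6 with DMSO. Every KO CME(-), KO CME(+) and WT CME(-) library lay above every DMSO library used, and the tCDCA and WT CME(+) libraries overlapped with DMSO. DMSO replicate 1 of the first set had 111 CPM, within the 89.6 to 137 of the treated first-set libraries.

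Adm rose 2.15-fold with KO CME(-) (log2 1.10 ± 0.23, edgeR adjusted p = 0.0153), 1.73-fold with KO CME(+) (0.79 ± 0.22, 0.0419) and 1.92-fold with WT CME(-) (0.94 ± 0.22, 0.0461). It was 0.55 ± 0.22 with tCDCA (adjusted p = 0.151, and 0.0286 without tCDCA replicate 2 or 0.0189 without DMSO replicate 4) and 0.46 ± 0.23 with WT CME(+) (adjusted p = 0.509). Between the extracts themselves, CME(-) against CME(+) gave 0.31 ± 0.21 with KO donors (adjusted p = 0.803) and 0.48 ± 0.21 with WT donors (adjusted p = 0.723).

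Within the second set alone Adm missed the threshold in all 3 comparisons, at log2 1.16 with KO CME(-) (adjusted p = 0.0611), 0.78 with KO CME(+) (0.0911) and 0.97 with WT CME(-) (0.158). The KO CME(-) call was lost without KO CME(-) replicate 4 or DMSO replicate 2 or 3 (adjusted p 0.0562 to 0.239). The KO CME(+) call was lost without any of its own 4 libraries or DMSO replicate 2 or 3 (0.0567 to 0.271), and the WT CME(-) call without WT CME(-) replicate 1, 2 or 3 or DMSO replicate 2 or 3 (0.107 to 0.306). With DMSO replicate 1 added, none of the 3 was called, at log2 0.88, 0.58 and 0.73 (adjusted p 0.124, 0.228 and 0.316).

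Ndrg1 (ENSMUSG00000005125.14), a stress-responsive gene linked to differentiation of epithelial cells, was at 331, 239, 365 and 325 CPM with tCDCA, 241, 219 and 289 with KO CME(-), 181, 291, 282 and 291 with KO CME(+), 207, 265, 281 and 196 with WT CME(-), 211, 232 and 240 with WT CME(+), and 184, 183 and 221 with DMSO. All 4 tCDCA libraries lay above the 3 DMSO libraries, and each extract group overlapped with DMSO. DMSO replicate 1, of the first set, had 285 CPM, below the 331 of its tCDCA library and above the 181 to 241 of the extracts.

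Ndrg1 rose 1.67-fold with tCDCA over DMSO (log2 0.74 ± 0.17, edgeR adjusted p = 0.00572; second-set libraries alone 0.66, 0.0235). Without DMSO replicate 3 it was 0.69 (adjusted p = 0.0509), and with DMSO replicate 1 added 0.52 (adjusted p = 0.0789). With the extracts Ndrg1 was 0.28 to 0.45 above DMSO on the log2 scale and not called. The direct comparisons of tCDCA with the extracts gave 0.29 to 0.46 on the log2 scale, at adjusted p from 0.195 to 0.643.

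Mxi1 (ENSMUSG00000025025.15) encodes an antagonist of MYC that competes for its partner MAX, and HIF is known to raise it. It was at 26.8, 26.0, 17.4 and 25.0 CPM with tCDCA, 28.6, 46.3 and 42.2 with KO CME(-), 33.4, 38.5, 38.4 and 43.3 with KO CME(+), 32.1, 36.1, 54.1 and 49.7 with WT CME(-), 29.1, 37.3 and 59.5 with WT CME(+), and 57.8, 49.9 and 53.5 with DMSO. The 4 tCDCA values lay below every value of the other 5 groups. DMSO replicate 1 had 34.2 CPM, again above its first-set tCDCA library.

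Mxi1 fell 2.08-fold with tCDCA against DMSO (log2 -1.06 ± 0.22, 95% interval -1.495 to -0.618, edgeR adjusted p = 0.00146; second-set libraries alone -1.24, 0.000528). This call held in all 19 alternatives tried, at log2 -1.24 to -0.87. With the extracts Mxi1 was -0.40 (KO CME(+)) to -0.25 (WT CME(-)) against DMSO, at adjusted p of 0.37 to 0.778. Of the 33 genes in the 5 comparisons with DMSO, it had the lowest adjusted p, and its change ran opposite to those of Ndrg1 and Car9 with tCDCA.

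**Figure D2:**
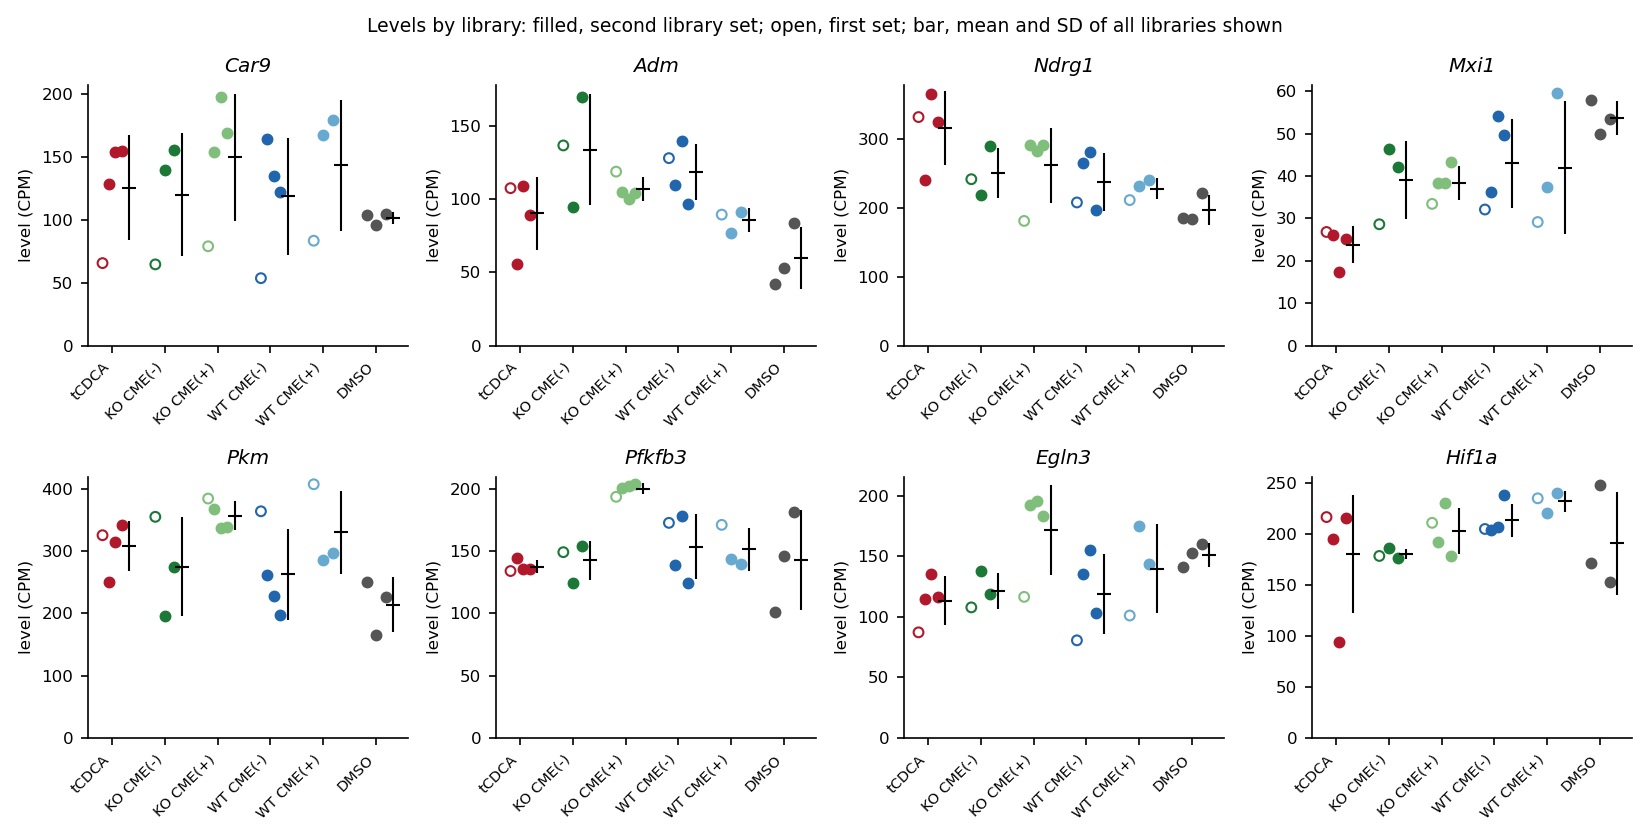
Levels in CPM of 8 genes (panels) in each library used, by group, with filled points for the second library set, open points for the first set, and a bar for the mean and SD of all libraries shown (n = 3 or 4 per group). Mxi1 is lowest in the 4 tCDCA libraries (17.4 to 26.8 CPM), and the open points of Car9 (53.5 to 83.2 CPM) lie below all DMSO points.

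The other 8 HIF targets outside metabolism were not called against DMSO in any group. Vegfa, the main growth factor of vessels, was at 66.8 to 76.7 CPM with tCDCA, against 64.8 to 79.2 with DMSO, and its log2 fold change there was 0.02 (95% interval -0.32 to 0.36). Bnip3 and Bnip3l, receptors for the removal of mitochondria, were 0.16 and 0.32 above DMSO with tCDCA. All 4 tCDCA libraries of Bnip3l (29.1 to 44.7 CPM) lay above the 3 DMSO libraries (24.4 to 26.9), but DMSO replicate 1 had 44.6 and the adjusted p was 0.45.

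P4ha1 and P4ha2 encode the catalytic subunits of the enzyme that hydroxylates collagen. Their log2 fold changes with tCDCA over DMSO were 0.26 and 0.78 at adjusted p of 0.629 and 0.27, P4ha2 resting on 13 to 75 counts per library. Kdm3a, a histone demethylase, lay between -0.39 (KO CME(+)) and 0.09 (WT CME(+)) over DMSO, and Higd1a, a protein of the mitochondrial inner membrane, between -0.12 (KO CME(+)) and 0.12 (tCDCA). Ankrd37, a small ankyrin repeat gene, had 11 to 147 counts per library and log2 fold changes of -0.07 (WT CME(-)) to 0.91 (WT CME(+)). It overlaps Ufsp2 and Lrp2bp on the opposite strand, which had up to 357 counts, and the strand setting of the counting is not given in the sources used here.

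Of the carriers, Slc2a1, the glucose carrier GLUT1, was at 301, 101, 234 and 105 CPM with tCDCA and at 79.2, 76.0 and 102 with DMSO. Its log2 fold change was 0.75 ± 0.24 (edgeR adjusted p = 0.0623), so it missed the threshold, and it passed without tCDCA replicate 2 (adjusted p = 0.0187) or 4 (0.0304), in DESeq2 (0.0274) and with no count filter (0.00151). Without tCDCA replicate 3, the library that stood apart, it was 0.38 (adjusted p = 0.278). DMSO replicate 1 had 294 CPM beside the 301 of first-set tCDCA. Slc16a3, the lactate exporter MCT4, was 0.40 ± 0.20 over DMSO with tCDCA (adjusted p = 0.296), and Pdk1, the kinase that closes entry of pyruvate into mitochondria, 0.03 ± 0.25 (adjusted p = 0.976).

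The 15 glycolytic enzymes were called 0 times with tCDCA over DMSO, although 12 of 15 had a positive log2 fold change and the median was 0.12. Aldoa, the aldolase of most tissues, was at 553, 369, 551 and 359 CPM with tCDCA and 193, 247 and 282 with DMSO. Every tCDCA library lay above the DMSO libraries used, but DMSO replicate 1 of the first set had 534, and the log2 fold change of 0.78 ± 0.26 had an adjusted p of 0.0799 (edgeR). It was called in DESeq2 (adjusted p = 0.0227), with no count filter (0.00032) and with the replicate number as a block (0.0449). Gapdh was at 14.5, 7.78, 5.46 and 10.3 CPM with tCDCA, against 3.96, 4.53 and 5.52 with DMSO, a log2 change of 1.005 ± 0.45 (edgeR adjusted p = 0.22), and DMSO replicate 1 had 20.1. With WT CME(+) it was at 25.8, 14.5 and 7.95 CPM, a log2 change of 1.74 ± 0.48 over DMSO (edgeR adjusted p = 0.148, and 0.0371 with no count filter).

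With KO CME(+), Pkm (ENSMUSG00000032294.18), the pyruvate kinase of dividing and muscle cells, was at 385, 368, 337 and 339 CPM, against 251, 165 and 227 with DMSO. These libraries did not overlap. The other groups had 326, 250, 315 and 342 with tCDCA, 355, 195 and 275 with KO CME(-), 364, 262, 229 and 197 with WT CME(-) and 408, 286 and 297 with WT CME(+), and DMSO replicate 1 had 348. Pkm rose 1.56-fold with KO CME(+) (log2 0.64 ± 0.17, edgeR adjusted p = 0.0370; second set alone 0.70, 0.0296). Without KO CME(+) replicate 2, 3 or 4 or DMSO replicate 3 or 4 the adjusted p was 0.0647 to 0.333, and with DMSO replicate 1 added it was 0.0925.

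In the same comparison 14 of the 15 glycolytic enzymes had a positive log2 fold change, with a median of 0.29, and Pkm alone was called. Pfkl, a subunit of phosphofructokinase, was at 38.7, 72.4, 90.5 and 84.6 CPM with KO CME(+) and at 38.4, 35.2 and 59.3 with DMSO, a log2 change of 0.79 ± 0.23 (adjusted p = 0.0526, and 0.0223 in the second set alone). Hk1, a hexokinase, was at 0.60 ± 0.21 (adjusted p = 0.12) and Hk2, the hexokinase that HIF is known to raise, at 0.41 ± 0.18 (0.262). Eno1, the enolase of most tissues, was the exception at -0.35 ± 0.21 (adjusted p = 0.428).

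The other enzymes stayed within 0.5 of DMSO on the log2 scale with tCDCA and with KO CME(+), and were not called in either. Without DMSO replicate 4, Pfkfb3 was called with KO CME(+) (0.68, edgeR adjusted p = 0.0478). With tCDCA they were Gpi1 (glucose-6-phosphate isomerase) at -0.20, Pfkp (another phosphofructokinase subunit) at 0.04, Pfkfb3 and Pfkfb4 (enzymes that set the activator of phosphofructokinase) at -0.08 and 0.03, Tpi1 (triose phosphate isomerase) at 0.07, Pgk1 (phosphoglycerate kinase) at 0.10, Pgam1 (phosphoglycerate mutase) at 0.49 and Ldha (lactate dehydrogenase) at 0.12. Pgam1 had 47.6 CPM in tCDCA replicate 3 and 10.5 to 16.6 in the other 3 tCDCA libraries, against 11.5 to 23.7 with DMSO.

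Several of these enzymes have near-identical copies in the genome, and reads could have been split between them. The last 300 bases of Gapdh matched 253 other annotated genes at 90% identity or more, and these copies held 41 to 216 counts per library, where Gapdh itself held 13 to 122. Gpi1 had 7 such copies with 253 to 890 counts, beside 477 to 1617 of its own. Ldha had 23, Aldoa 10, Pkm 9, Eno1 8, Bnip3 6, Tpi1 3 and Mxi1 and Higd1a 2 each. Pfkp and Ndrg1 had 1 match each. The copies of Aldoa, Pkm, Ldha, Mxi1, Bnip3, Tpi1 and Higd1a held at most 10 counts in any library. Those of Eno1 held 1 to 89, beside 98 to 449 of its own. The match of Pfkp held 11 to 107, beside 364 to 1761, and that of Ndrg1 up to 27, beside 486 to 2236. Pitrm1, which overlaps Pfkp on the opposite strand, also had up to 107 counts, and genes overlapping Ndrg1 there up to 27. Both strands were searched, so the matches of Pfkp and Ndrg1 may be these overlapping genes rather than copies elsewhere. The levels of Gapdh, Gpi1 and Eno1 are uncertain because of their copies. That of Pfkp is uncertain because the strand setting of the counting is not given. How reads that match several genes were counted is not given in the sources used here. Few counts in the copies of Aldoa, Pkm or Ldha therefore do not show that these genes lost no reads.

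Several enzymes of sugar use outside the 33 genes fell with tCDCA. Of 11 tested in a list of other sugar and lactate enzymes, 6 fell against DMSO, 0 rose, and the median log2 fold change was -0.91. Tkfc, a kinase of fructose breakdown, was at 48.6, 52.7, 64.0 and 51.6 CPM with tCDCA and 135, 203 and 151 with DMSO, and fell 2.74-fold (log2 -1.45 ± 0.21, edgeR adjusted p = 1.05e-05).

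Khk, the first kinase of fructose use (log2 -1.24), and Galm, an epimerase of galactose use (-1.17), fell too, at adjusted p of 0.00119 and 0.00212 in edgeR. Pklr, Bpgm and Pgm2 were the remaining 3 that fell. In the list of 6 gluconeogenic genes 1 fell, G6pc, the glucose-6-phosphatase of gut and liver, which had 0 to 3 counts per tCDCA library, against 33 to 52 counts per DMSO library used (edgeR adjusted p = 3.72e-05). The first-set libraries held few G6pc counts in every group (0 to 5), and DMSO replicate 1 had 0. In DMSO replicate 1, the first-set library, Tkfc was at 105 CPM, above the 48.6 of first-set tCDCA. Galm (17.0 against 12.6), Pklr (22.0 against 13.9) and Bpgm (43.1 against 28.3) were also higher there than in first-set tCDCA. Khk (13.0 against 14.4) and Pgm2 (44.9 against 55.2) were lower there.

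**Figure D3:**
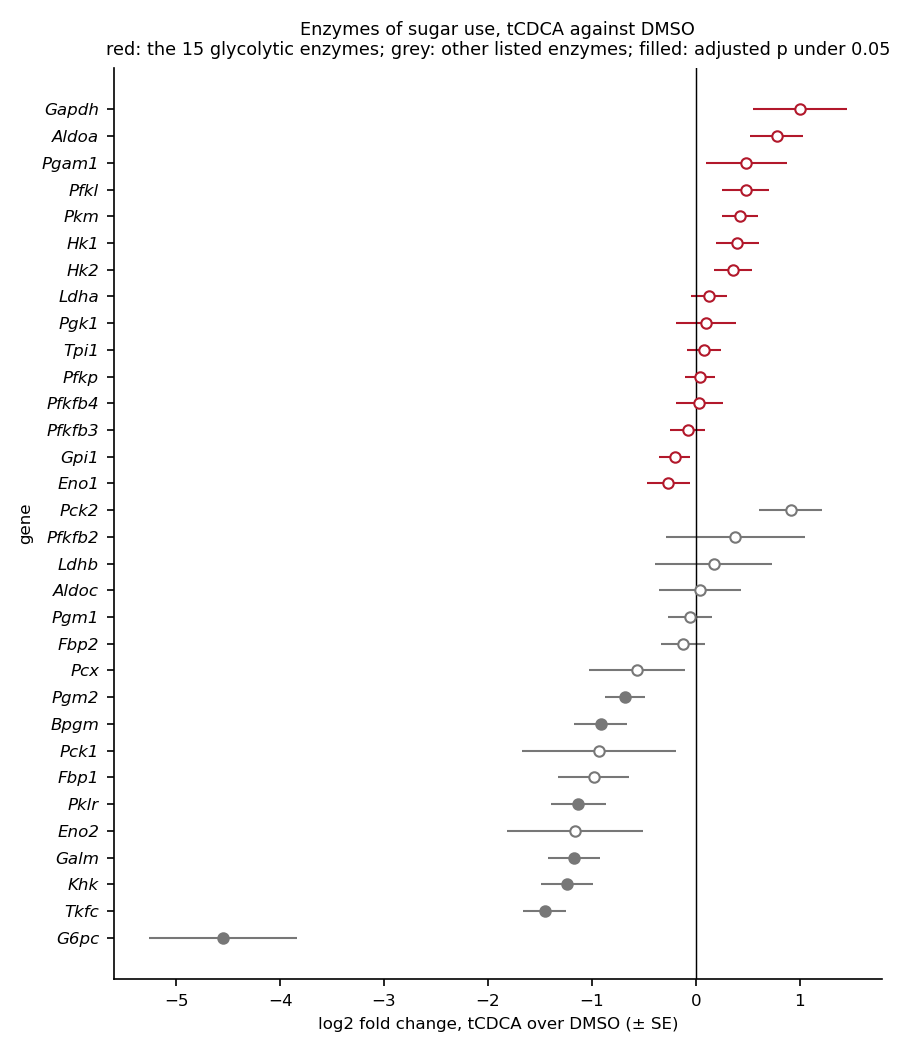
Log2 fold change with SE of tCDCA over DMSO for the 15 glycolytic enzymes (red) and 17 other listed enzymes of sugar use (grey), filled where the adjusted p was under 0.05. The red points lie between -0.26 (Eno1) and 1.005 (Gapdh) and none is filled, and the 7 filled grey points all lie below 0.

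Markers of enterocytes, the absorbing cells that carry much of fructose use in the gut, moved with this comparison. Of 12 enterocyte markers, 8 fell with tCDCA against DMSO and 1, Cdx1, rose, with a median log2 fold change of -1.28. Their summed level was 1968 to 3841 CPM in tCDCA libraries and 6048 to 10829 in the DMSO libraries used, with Vil1, Anpep and Mgam among those lower and none of the 12 too low to test. DMSO replicate 1 had a sum of 3071 CPM, against 2394 in first-set tCDCA. Of 10 secretory markers 2 rose and 1 fell, and Cd14 rose among 8 myeloid markers. Of 4 erythrocyte markers tested, Hbb-bs (log2 -0.63) and Hbb-bt (-1.06) fell and 0 had a positive fold change. Of 6 fibroblast markers 0 were called and 0 had a positive fold change, with 3 at an unadjusted p under 0.05 in edgeR. Of all 13125 genes tested, 2324 had such a p. The part of these markers in the changes of Ndrg1, Car9, Mxi1 and the other enzymes was not tested.

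For the KO CME(+) comparison with DMSO, 1 enterocyte marker was called, Cdx1, which rose. The summed enterocyte level was 3078 to 4892 CPM, against 6048 to 10829 in the DMSO libraries used. DMSO replicate 1 had a sum of 3071 CPM, below the 3660 of first-set KO CME(+). Smooth muscle markers, 6 of 6 with a negative log2 fold change and 0 called, summed to 808 to 952 CPM, against 899 to 1605 with DMSO. Among 6 fibroblast markers Dcn fell. Of 5 crypt and stem cell markers tested, 0 were called and 4 had a positive fold change, with a median log2 fold change of 0.64. In edgeR, 4 of the 5 had an unadjusted p under 0.05, and 1997 of all 13125 genes tested had one. The summed level of these crypt and stem cell markers was 230 to 566 CPM with KO CME(+), against 271 to 451 with DMSO. The part of all these markers in the changes of Car9, Adm and Pkm was not tested. With KO CME(-), WT CME(-) and WT CME(+), the summed enterocyte levels were 2418 to 4294, 3854 to 6841 and 3245 to 6849 CPM. Their first-set libraries had 2418, 4111 and 3245 CPM, against the 3071 of DMSO replicate 1. In each of these groups 0 of 12 enterocyte markers were called. In edgeR, 11 of 12 had an unadjusted p under 0.05 with KO CME(-), 6 with WT CME(-) and 2 with WT CME(+). Of all 13125 genes tested, 1624, 1234 and 1316 had such a p in these 3 comparisons. With WT CME(+) the 6 smooth muscle markers summed to 838 to 925 CPM, against 899 to 1605 with DMSO, and 0 of 6 had a positive fold change, 3 of them at an unadjusted p under 0.05. The part of these markers in the changes of Adm and Car9 was not tested.

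Of 11 other regulators of the HIF pathway tested, 0 were called in any group against DMSO. Of 25 other hypoxia targets, 1 was called with tCDCA and with KO CME(+), and it was Ccng2, a cyclin gene, in both. Ccng2 was at 110, 86.9, 79.3 and 63.2 CPM with tCDCA, 77.9, 49.9, 56.0 and 67.1 with KO CME(+), and 84.6, 170 and 138 with DMSO. In the first set, DMSO replicate 1 had 85.7 CPM, below the 110 of tCDCA and above the 77.9 of KO CME(+). Ccng2 fell by 0.74 on the log2 scale with tCDCA (edgeR adjusted p = 0.00833) and by 1.17 with KO CME(+) (adjusted p = 0.000165).

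Of 12 genes of pyruvate entry into mitochondria, Pdk2, another pyruvate dehydrogenase kinase, fell with tCDCA (log2 -1.54 ± 0.45, edgeR adjusted p = 0.0491), from few counts (8 to 72 per tCDCA library, against 86 to 149 per DMSO library used, and 8 in DMSO replicate 1). In the pentose phosphate pathway 1 of 7 genes was called, and only with KO CME(+): Rpia, the ribose-5-phosphate isomerase, at 36.2, 64.4, 38.6 and 53.8 CPM with KO CME(+), against 16.7, 25.8 and 17.9 with DMSO and 31.7 in DMSO replicate 1 (log2 1.42 ± 0.27, adjusted p = 0.00256). With KO CME(-), WT CME(-) and WT CME(+), none of the genes in these 6 other lists was called against DMSO.

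Set against the extracts directly, tCDCA gave few calls among the 33 genes, namely 0 against KO CME(-), 2 against KO CME(+), 1 against WT CME(-) and 1 against WT CME(+). Of all genes tested, 0.114% were called against KO CME(-), 1.94% against KO CME(+), 0.541% against WT CME(-) and 1.55% against WT CME(+). Mxi1 was lower with tCDCA than with WT CME(-) by log2 -0.80 ± 0.20 (adjusted p = 0.0466, edgeR) and than with WT CME(+) by -0.79 ± 0.21 (0.0443). In second-set libraries alone these were -1.04 (adjusted p = 0.0215) and -1.09 (0.0122).

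Against KO CME(+), Mxi1 was -0.66 ± 0.20 (edgeR adjusted p = 0.0756, 0.0139 without tCDCA replicate 1, and 0.041 in DESeq2), and against KO CME(-) -0.69 ± 0.21 (adjusted p = 0.261), with tCDCA libraries below all libraries of both groups. The Mxi1 call against WT CME(-) was lost without WT CME(-) replicate 1, 3 or 4 or tCDCA replicate 2, 3 or 4 (adjusted p 0.0793 to 0.203). The call against WT CME(+) was lost without WT CME(+) replicate 3 or 4 or tCDCA replicate 2, 3 or 4 (0.0668 to 0.470), and without WT CME(+) replicate 4 its log2 fold change was -0.52. Against KO CME(-), where none was called, the 3 smallest p belonged to Mxi1, Slc16a3 (0.56 ± 0.20, adjusted p = 0.347) and Adm (-0.55 ± 0.21, 0.392).

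Egln3 (ENSMUSG00000035105.6) was at 87.1, 115, 135 and 116 CPM with tCDCA, and at 116, 192, 195 and 183 with KO CME(+). The other groups had 108, 137 and 119 with KO CME(-), 80.5, 135, 155 and 103 with WT CME(-), 101, 175 and 143 with WT CME(+) and 141, 152 and 160 with DMSO. Within each set, every tCDCA library was below every KO CME(+) library. Egln3 was lower with tCDCA than with KO CME(+) (log2 -0.58 ± 0.14, edgeR adjusted p = 0.0199; second set alone -0.63, 0.0472). Without tCDCA replicate 2 or 4 or KO CME(+) replicate 2, 3 or 4 the adjusted p was 0.0523 to 0.0813.

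Pfkfb3 (ENSMUSG00000026773.20) was at 134, 145, 136 and 136 CPM with tCDCA and 194, 201, 202 and 204 with KO CME(+), with no overlap. It was at 149, 125 and 154 with KO CME(-), 173, 139, 178 and 124 with WT CME(-), 171, 144 and 140 with WT CME(+) and 101, 146 and 182 with DMSO, so KO CME(+) stood highest and had the least spread. Pfkfb3 was 1.45-fold lower with tCDCA than with KO CME(+) (log2 -0.54 ± 0.15, edgeR adjusted p = 0.0497). Leaving out any 1 of the 8 libraries gave adjusted p of 0.0645 to 0.141, and the second set alone 0.162.

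Gpi1 was called in DESeq2 only, lower with tCDCA than with KO CME(+) (log2 -0.39, adjusted p = 0.0268) and WT CME(+) (-0.43, 0.0229). The other sugar enzymes were also lower with tCDCA than with some extracts. Against KO CME(+), Tkfc, Pklr and Khk were called (3 of 11), and against WT CME(+), Tkfc, Khk and Galm (3 of 11). The log2 fold changes were -1.01 (Tkfc) to -0.82 (Khk) against KO CME(+) and -1.23 (Khk) to -0.96 (Galm) against WT CME(+). Against KO CME(-) and WT CME(-), 0 of 11 were called. Slc16a1, another lactate carrier, was lower with tCDCA than with WT CME(+) (-0.72 ± 0.18, edgeR adjusted p = 0.0277), and G6pc was lower than with KO CME(-), KO CME(+) and WT CME(+). Of the 12 enterocyte markers, 0 were called lower with tCDCA against KO CME(-), 4 against KO CME(+), 2 against WT CME(-) and 6 against WT CME(+). Fold changes were above 0 for 3, 1, 1 and 0 of them, and 7, 7, 8 and 9 had an unadjusted p under 0.05 in edgeR. The matching counts over all genes tested are not given here. The part of these markers was not tested.

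In the comparison with KO CME(+), where Egln3 and Pfkfb3 were called, markers of other cells moved too. All 6 smooth muscle markers had a positive fold change with tCDCA, and Actg2 (log2 0.78) and Acta2 (0.69) were called higher. Cd14 (1.35) and Ang4 (0.83) were also higher, and Axin2 (-1.11) and Fcgbp (-0.97) lower. Against WT CME(+), where Mxi1 was called, 6 of 6 smooth muscle markers had a positive fold change and 0 were called. The part of these markers in the differences of Egln3, Pfkfb3 and Mxi1 was not tested.

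Between the 2 forms of an extract none of the 33 genes passed the test. CME(-) against CME(+) gave 0 calls for KO donors, where 0.0229% of all genes tested were called, and 0 for WT donors, where 0% were. In edgeR, 7 of 33 genes had an unadjusted p under 0.05 with KO donors and 8 of 33 with WT donors. Of all genes tested, 935 did with KO donors and 831 with WT donors. DESeq2 also called 0 of the 33 genes in both. With the extract donor as a block, 0 of 33 were called in both, and 18 genes overall with KO donors and 21 with WT donors. In that fit the replicate 1 libraries, whose donors are not named, were paired by their library set.

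With KO extracts the 3 smallest p belonged to Pfkfb3 (log2 -0.50 ± 0.17, adjusted p = 0.393), Egln3 (-0.42 ± 0.16, 0.475) and Pkm (-0.44 ± 0.17, 0.515). With WT extracts they belonged to Gapdh (-1.32 ± 0.42, adjusted p = 0.474), Ankrd37 (-0.98 ± 0.33, 0.54) and Car9 (-0.39 ± 0.15, 0.586). All 6 values are lower with CME(-). Of the 33 genes, 11 were higher with CME(-) in KO extracts and 8 in WT extracts, with median log2 fold changes of -0.18 and -0.12, where the median of all genes tested was -0.01 in both.

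**Figure D4:**
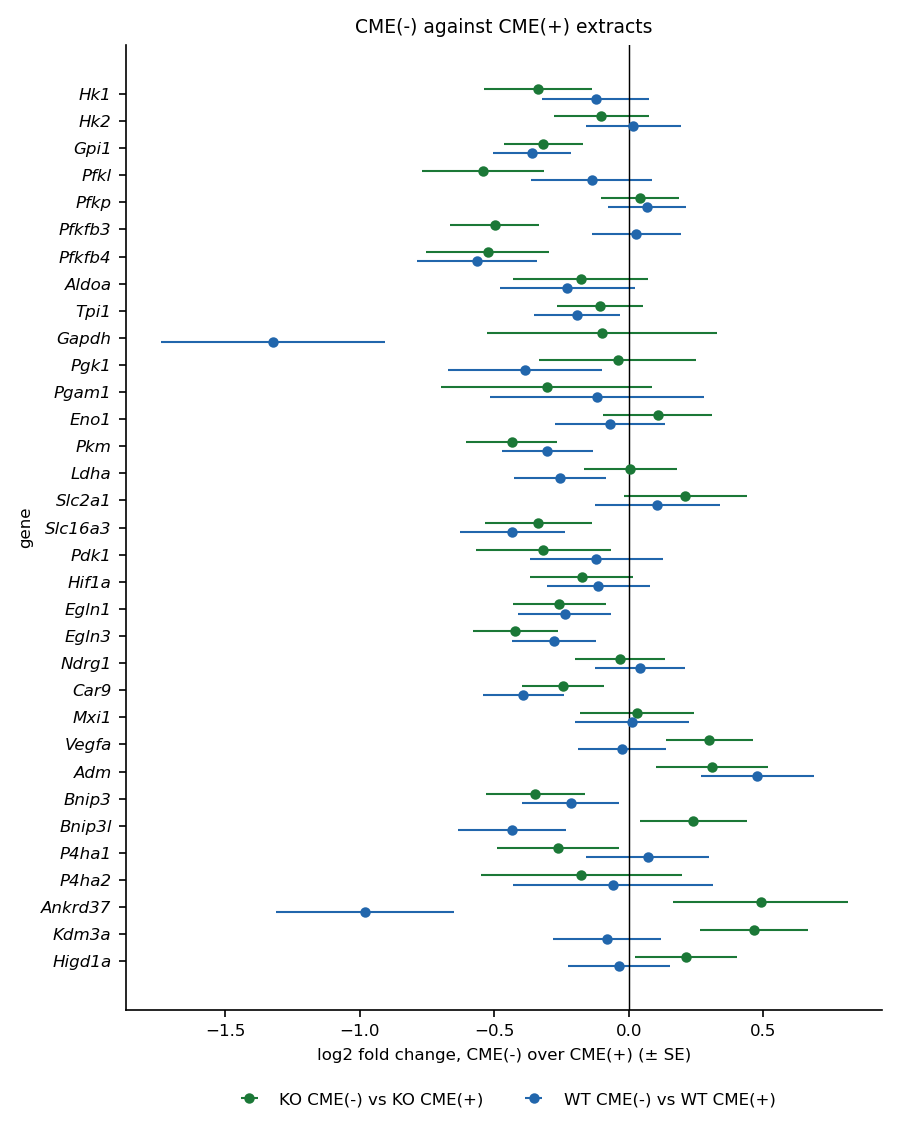
Log2 fold change with SE of CME(-) over CME(+) for each of the 33 genes, for KO extracts (green) and WT extracts (blue). Most points lie left of 0 (22 of 33 genes with KO and 25 of 33 with WT extracts), none was called, and Gapdh with WT extracts is lowest at -1.32.

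The donor genotype gave no call either. KO against WT gave 0 of 33 for CME(-) and 0 of 33 for CME(+), with 0% of all genes tested called in each. In edgeR, 2 and 5 of the 33 genes had an unadjusted p under 0.05. The matching counts over all genes tested are not given here, so no result is drawn from these 2 counts. The 3 smallest p for CME(-) belonged to Ankrd37 (log2 0.81 ± 0.33), Bnip3l (0.43 ± 0.20) and Pdk1 (-0.43 ± 0.25), all at an adjusted p of 0.997. For CME(+) they belonged to Gapdh (-1.12 ± 0.40), Pfkfb3 (0.41 ± 0.17) and Kdm3a (-0.48 ± 0.20), all at an adjusted p of 0.9997.

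The difference between the CME(-) over CME(+) changes of KO and WT extracts was called for 0 of 33 genes and for 0% of all genes tested (491 genes at an unadjusted p under 0.05 in edgeR). The smallest p among the 33 genes in edgeR was that of Ankrd37 (difference 1.47 ± 0.46 on the log2 scale, adjusted p = 1), before Bnip3l (0.67 ± 0.28) and Pfkfb3 (-0.53 ± 0.23). Ankrd37 stood at 10.9, 34.1 and 17.2 CPM with KO CME(-), 9.34, 22.2, 13.5 and 16.8 with KO CME(+), 2.35, 17.9, 19.0 and 16.6 with WT CME(-), and 13.3, 21.4 and 33.6 with WT CME(+). All 4 groups overlapped.

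Across the 5 treated groups, 18 of the 33 genes stood on the same side in all 5 when the second library set was compared with the first. This was not counted over all genes tested, so it is not shown to be a trait of these 33 genes. Slc2a1 was lower in the second set in 5 of 5 groups, at 78.6 to 234 CPM in the 13 second-set libraries and 202 to 301 in the 5 first-set ones, a mean log2 difference of -1.20. Hk2 (-1.06), Pfkp (-0.75), Eno1 (-0.67), Slc16a3 (-0.62), Aldoa (-0.61), Tpi1 (-0.58), Hk1 (-0.53), Pkm (-0.41) and Ldha (-0.37) were also lower in 5 of 5 groups, and Adm by -0.20.

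In the other direction, Ankrd37 (1.52), Car9 (1.18), Egln1 (0.83), Egln3 (0.55), P4ha1 (0.54), Kdm3a (0.46) and Higd1a (0.33) were higher in the second set in 5 of 5 groups. HIF targets thus stood on both sides, with Slc2a1 and Hk2 among the genes higher in the first set and Car9 and Egln3 among those higher in the second. The sets differed in mitochondrial rRNA too, and first-set tCDCA carries no stated concentration. No test was made of the sets, and the sources used here do not say what differed between them.

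**Figure D5:**
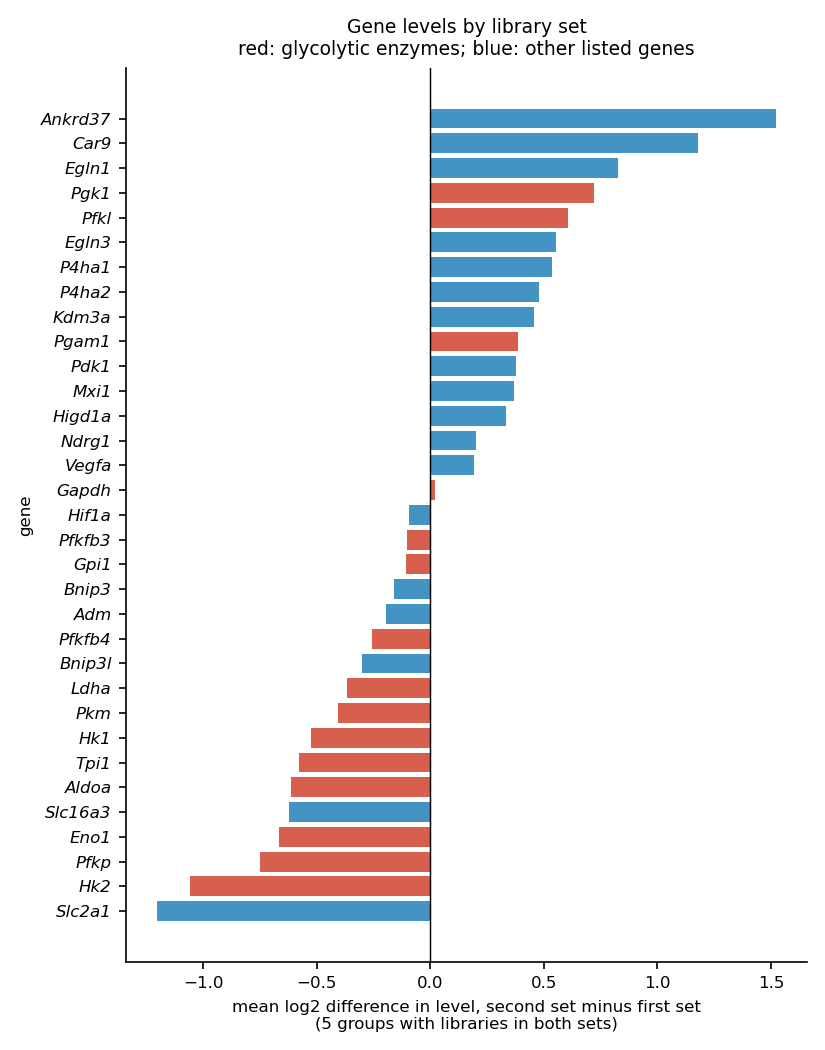
Mean log2 difference in level between the second and the first library set over the 5 treated groups, for each of the 33 genes, with glycolytic enzymes in red and the others in blue. Bars run from -1.20 (Slc2a1) to 1.52 (Ankrd37), and 8 of the 15 red bars belong to enzymes that were lower in the second set in all 5 groups. The matching share of all genes tested was not computed.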

How the data were processed

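The ileum fragments gave 3' mRNA libraries (QuantSeq), and the deposited table holds raw counts per Ensembl identifier for 24 libraries. The build was GRCm39 and the tools cutadapt, HISAT2, FastQC and Picard, per the submitters' processing notes, which record no versions. Which program counted the reads, and whether by strand, was not stated. Symbols came from GENCODE M21 for 51884 of 57126 identifiers, which held 88.4% of counts. The 21 libraries not marked as removed were fitted together with edgeR 4.0.16 in R 4.3.3 (TMM scaling, low-count filter, quasi-likelihood test, terms for group and library set) for 14 comparisons, with Benjamini-Hochberg adjustment over 13125 genes. At a total of 2.76 to 5.6 M counts the common biological coefficient of variation was 0.266, and a plain p under 0.05 would be met by about 656 genes by chance. The script was tested on simulated data.

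The members and gene lists were chosen with earlier results of these data known. All 33 members are named, with values in every library for those called in any comparison of groups and for Hif1a. Where none was called, the 3 with the smallest p are given, and of each other list the called genes, up to 4 with the smallest p. Alternatives covered scaling, DESeq2 1.42.0, filters, library set, blocks and libraries left out. Deviations of same-numbered libraries from their group means correlated at r from -0.115 to 0.0805 in 35 pairs. With 2 or 3 second-set libraries per group, this cannot show that pairing is absent. The labels name the extract donor for replicates 2 to 4 and not for replicate 1. In replicates 2 to 4 the same donors gave both forms, which pairs CME(-) with CME(+) by donor. The deviations of these 4 pairs correlated at -0.0128 to 0.0556. Each pair includes a group with 2 second-set libraries, whose deviations differ only in sign, so these values do not decide whether donors matter. Copies were sought with blastn 2.17.0 in the last 300 bases (at least 100 bases at 90% identity). One gene of the list of other sugar and lactate enzymes is not reported here and is left out of its counts.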

Additional observations from a re-analysis of the deposited data

Results flagged for a closer look

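In 10 of the 99 sets of 4 libraries (33 genes in 3 groups), 1 library lay far from the other 3 by Dixon's test at the 95% level. Chance gives about 1 in 20 such sets. Of the 10 libraries, 8 were of the first set. With WT CME(-), Hk2 (590.86 CPM) and Slc2a1 (217.85 CPM) were highest and Ankrd37 (2.354 CPM) lowest in first-set replicate 1. With tCDCA, Bnip3l (44.718 CPM) and Pfkp (260.76 CPM) were highest in first-set replicate 1. With KO CME(+), Tpi1 (307.39 CPM) was highest, and Egln3 (116.35 CPM) and Ndrg1 (180.59 CPM) were lowest, in first-set replicate 1. The 2 second-set libraries were tCDCA replicate 3 for Pgam1 (47.602 CPM, highest) and WT CME(-) replicate 4 for Hif1a (237.96 CPM, highest).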

How the results depend on the processing

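No direction of any of the 33 genes that was called turned under any alternative. Over the 33 genes, all comparisons and all alternatives, 8498 values kept their side of the threshold, 121 lost it and 27 gained it. Most values that kept their side were of genes uncalled in both fits, and only a called gene could lose it. Calls held in 2 of 19 alternatives (Pfkfb3, tCDCA against KO CME(+)) to 19 of 19 (Mxi1, tCDCA against DMSO). Pkm with KO CME(+) against DMSO held in 9 of 18. Of the 33 genes, tCDCA against DMSO gave 3 calls, 5 in DESeq2 and 1 each with no set term, with DMSO replicate 1 added, with all libraries, with the compared groups alone, and with tCDCA replicate 3 and DMSO replicate 3 left out, an alternative chosen after seeing the data. KO CME(+) against DMSO gave 3, 5 in DESeq2 and 0 with no set term, DMSO replicate 1 added, all libraries or the groups alone. In every comparison with DMSO the fit of the groups alone also had no set term, since the DMSO libraries used were all of the second set. KO CME(-), WT CME(-) and WT CME(+) against DMSO gave 1 each, and 0 with no scaling factors, no set term, the second set only, DMSO replicate 1 added, all libraries or the groups alone. KO CME(-) and WT CME(+) gave 2 in DESeq2, and WT CME(+) 2 with no count filter. tCDCA gave 1 call against WT CME(-) and WT CME(+), and 0 with no scaling factors, no set term, DMSO replicate 1 added or the groups alone, and 0 against WT CME(-) with all libraries. It gave 2 against WT CME(-) with no count filter and 2 against WT CME(+) in DESeq2. Against KO CME(+) it gave 2 calls, 4 in DESeq2, 0 with no scaling factors or no set term, and 1 with size factors of DESeq2, without mitochondrial rRNA, in the second set only, with DMSO replicate 1 added, with all libraries or with the groups alone.

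With the replicate number as a block, tCDCA against DMSO gave 4, tCDCA against WT CME(-) and WT CME(+) 0 each and against KO CME(+) 1, and no other count moved. The libraries share only a number. Leaving out 1 library gave 1 to 5 calls for tCDCA and 1 to 4 for KO CME(+) against DMSO, 0 to 1 for the other extracts against DMSO and for tCDCA against the WT extracts, 0 to 2 against KO CME(+), and 0 elsewhere. The cause was not tested. Without scaling factors the median of all genes moved to 0.131 with tCDCA, 0.222 with KO CME(+) and 0.124 with WT CME(+) over DMSO, to 0.178 with tCDCA over WT CME(-) and -0.105 over KO CME(+), to -0.183 (KO) and -0.185 (WT) for CME(-) over CME(+), and to 0.104 for KO over WT CME(-). Depth limits the low genes: Gapdh, with 13 to 122 counts per library, had a standard error of 0.45 on the log2 scale with tCDCA over DMSO, and P4ha2, with 13 to 75, one of 0.38.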
